A study of Homo sapiens with 8 samples.

Results

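The RN7SL family consists of the genes and pseudogene copies of the signal recognition particle (SRP) RNA. Of 48055 transcripts in the long noncoding RNA (lncRNA) table, 244 had a name starting with RN7SL, and 154 of them were members, chosen by raw counts of at least 10 summed over the 4 input libraries. The abundance of the members is therefore a description and not a finding. RN7SL273P and RN7SL715P stood just inside the limit with 10 counts each. RN7SL359P, RN7SL377P and RN7SL628P stood just outside it with 9 each. The 90 copies under the limit held 246 counts in all. RN7SL1 was not among the 154 members and was not analysed here. Whether reads from it were counted at other copies, such as RN7SL2, is not known.

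The cells were 5637, an established human bladder cancer line. Control cells, labelled WT with NC in their titles, were compared with cells under knockdown of TRMT61A, labelled SH, which the study's design describes as stable. Each group had 2 samples, and each sample gave a total RNA input library depleted of ribosomal RNA and a library after immunoprecipitation with an antibody to N1-methyladenosine (m1A). No label used here gives the hairpin sequence, the construct of the controls or whether replicates were separate cultures. A p-value therefore measures the spread among these particular samples alone, and that spread may be technical.

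The SRP is a complex of RNA and proteins that recognises the signal peptide of a nascent secretory or membrane protein, slows its translation and brings the ribosome to the endoplasmic reticulum. RNA polymerase III transcribes its RNA, which is among the most abundant noncoding RNAs of human cells and is the ancestor of the Alu repeats. The genome carries many retrotransposed copies of it, and most are thought not to be transcribed from a promoter of their own. TRMT61A with its partner TRMT6 places m1A in the T loop of cytosolic tRNAs and at tRNA-like structures in other RNAs.

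Copies of this family resemble each other closely, and reads from one may be counted at another. How the counting treated a read that maps to several copies, and whether it used strand, is not given in the sources used here. Values of single copies are therefore uncertain, and shares of the family total are given beside them. The lncRNA table held 1727826 to 2304288 counts per input library and that of mRNA held 30046283 to 42177927. TRMT61A itself measured 19.8 and 14.7 CPM, counts scaled to a common library size, in the controls and 13.4 and 6.71 CPM in the knockdown libraries. Its log2 fold change of -0.78 ± 0.29 (SE) was not past the threshold of edgeR's test (adjusted p = 1.00). Of 8 tested epithelial and urothelial markers, TP63, KRT5, KRT8, KRT17, KRT18, KRT19, EPCAM and GATA3 stood between 40.1 and 1144 CPM, and UPK1A and UPK2 were not tested because of low counts. Of 9 markers of other cell types 5 were tested. COL1A1 stood at 27.8 to 39.5 CPM and the other 4 at no more than 1.77 CPM.

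Almost all RN7SL counts sat on 4 copies. RN7SL2 on chromosome 14 (hg38, 49862550 to 49862849, minus strand), an SRP RNA gene that is listed as intergenic, had 134124 counts in control input 1 and 160724 in control input 2. In knockdown inputs 1 and 2 it had 156691 and 102637. RN7SL3, close by on the same strand (49853616 to 49853914), had 11192, 13782, 16528 and 8877 counts in the same order. RefSeq lists these 2 as small cytoplasmic RNA genes and the other 152 members as pseudogenes. RN7SL5P on chromosome 9 (9442060 to 9442380, plus strand) lies antisense in an intron of PTPRD, a receptor tyrosine phosphatase gene, and had 16957, 24027, 22001 and 43755 counts. RN7SL4P on chromosome 3 (15738515 to 15738809, plus strand) lies antisense in an intron of ANKRD28, which encodes a regulatory subunit of protein phosphatase 6, and had 5574, 9795, 18039 and 16246 counts. These 4 copies are 295 to 321 bases long, so that counts and counts per length rank them alike. RN7SL2 was the highest in every library and RN7SL5P the next, while RN7SL3 exceeded RN7SL4P in both controls and RN7SL4P exceeded RN7SL3 in both knockdown libraries.

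The other 150 members were sparse. They had between 10 and 1217 counts summed over the inputs, with a median of 73, and 141 of all 154 members had a count in every input. The highest of them was RN7SL648P, an intergenic copy on chromosome X, with 257 and 313 counts in control and 310 and 337 in knockdown, named after its values were seen. Together the 150 copies held 1.91% and 2.02% of the RN7SL counts in control and 1.92% and 2.28% in knockdown. Member length ran from 238 to 339 bases with a median of 296, except for RN7SL832P at 1756 bases. By the position given in the deposited table, 127 members lie in an intron in the sense of the host gene, 21 are intergenic, 5 are antisense in an intron and 1 is bidirectional. The 127 sense intronic copies held only 1.58%, 1.68%, 1.59% and 1.86% of the RN7SL counts. Their summed counts followed those of the host gene in the mRNA table (Pearson r = 0.61 and Spearman rho = 0.62 of log2 values across 123 copies with a measured host). These points share the same libraries, copies in 1 host are not independent, and the value is a description across genes. The log2 fold changes of 91 tested copies and their hosts had r = 0.00. Of the hosts of the 2 abundant antisense copies, the PTPRD mRNA had 5, 4, 1 and 0 counts in the 4 inputs, and ANKRD28 had 105, 103, 117 and 105 CPM.

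The share of lncRNA counts held by the whole family did not differ between groups beyond the spread of the samples. The members made up 9.90% and 9.23% of lncRNA counts in the control inputs and 9.81% and 8.28% in the knockdown inputs, or 9.57% ± 0.48 and 9.04% ± 1.08 (SD, n = 2 each). The difference of -0.522 percentage points was smaller than the spread within the knockdown group (exact two-sided permutation test, p = 0.667, with 0.333 the smallest p that 2 against 2 samples allow). Without knockdown replicate 2 the difference was 0.239 points, so its direction rests on that library. With all 244 rows summed to 1 row, the RN7SL log2 fold change was -0.09 ± 0.06 (SE, edgeR adjusted p = 1.00). That fit gave -0.16 without control replicate 2 (edgeR adjusted p = 0.00823), -0.23 without knockdown replicate 1 (edgeR adjusted p = 1.73e-11) and 0.03 without knockdown replicate 2 (edgeR adjusted p = 1.00). With 1 sample left in a group, that sample is assumed to vary like the other group.

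The make-up of the family differed between libraries far more than its total. RN7SL2 held 78.4% and 75.6% of the RN7SL counts in control and 72.1% and 58.5% in knockdown. RN7SL5P held 9.91%, 11.3%, 10.1% and 24.9% in the same order. RN7SL3 held 6.54%, 6.48%, 7.60% and 5.06%. RN7SL4P held 3.26% and 4.61% in control and 8.30% and 9.26% in knockdown. Knockdown input 2 stood apart from the other 3 libraries, with the lowest share of RN7SL2 and a share of RN7SL5P more than double any other. The shares of the groups did not overlap for RN7SL2 and RN7SL4P, and they overlapped for RN7SL5P and RN7SL3. Shares are parts of 1 total and are not independent of each other. In CPM the groups of RN7SL2 overlapped, with 73088 in knockdown 1 against 71704 in control 2. Over all lncRNA transcripts tested, the CPM of the groups lay apart in 16.5% as higher and 16.7% as lower. The widest 95% exact binomial interval of any of these shares reached 0.231 points to either side and covers counting error only, so that depth did not limit them. In these bulk libraries fewer cells of a type and less RNA per cell cannot be told apart.

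**Figure D1:**
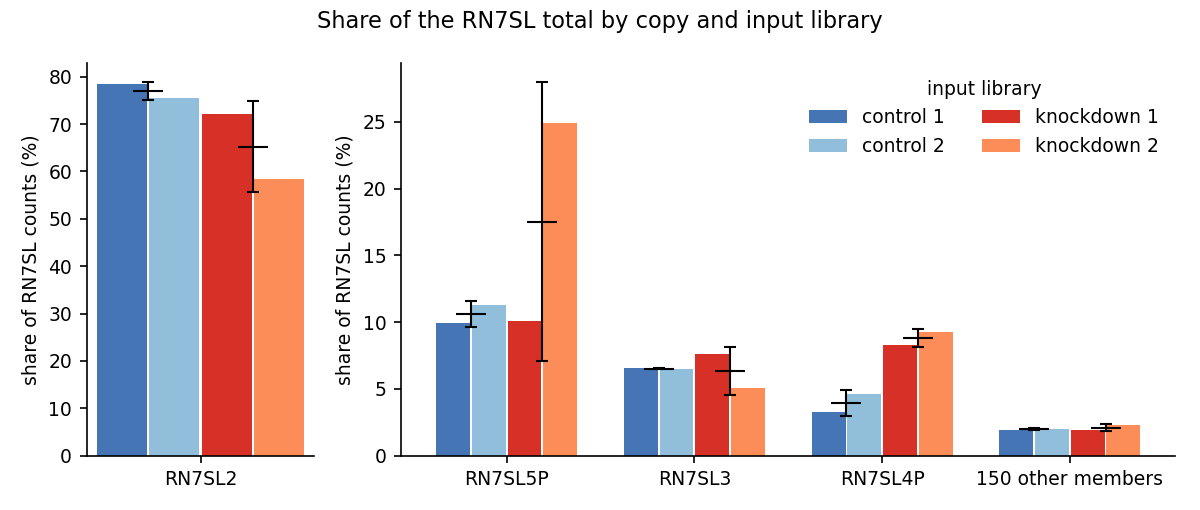
Share of the RN7SL counts (percent, vertical axes from 0) held by each of the 4 abundant copies and by the 150 other members, 1 bar per input library, with black marks for the group mean ± SD (n = 2 each). RN7SL4P stands at 3.26% and 4.61% in control and at 8.30% and 9.26% in knockdown, and the high bar of RN7SL5P and the low bar of RN7SL2 both belong to knockdown 2.

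RN7SL4P was the 1 copy that passed the test, as higher in the knockdown. Reads shared between copies leave this level uncertain. The copy was already known to differ when the family was chosen. It measured 3369 and 4370 CPM in the controls and 8414 and 7849 CPM under knockdown, a log2 fold change of 1.07 ± 0.10 (SE, adjusted p = 1.03e-06 in edgeR). Both knockdown libraries lay above both controls, and the spread within each group was small beside the gap. Its share of the RN7SL counts was 3.93% ± 0.95 in the controls and 8.78% ± 0.68 under knockdown (SD, n = 2 each), a difference of 4.84 points (exact two-sided permutation test, p = 0.333, the smallest possible). For every 100 counts of RN7SL2 there were 4.16 and 6.09 counts of RN7SL4P in control and 11.5 and 15.8 in knockdown. Set against RN7SL3, the numbers were 49.8 and 71.1 in control and 109.1 and 183.0 in knockdown. These ratios do not depend on how libraries are scaled. Against RN7SL5P they were 32.9 and 40.8 in control and 82.0 and 37.1 in knockdown, so that the groups overlapped, with knockdown input 2 between the controls. Over the alternatives run, including without each library in turn, the log2 fold change of RN7SL4P stayed between 0.89 and 1.26 and past the threshold. ANKRD28, in whose intron the copy lies, had a log2 fold change of 0.09 ± 0.08 (SE, adjusted p = 1.00 in edgeR).

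The other 3 abundant copies did not pass the test. RN7SL5P measured 10249 and 10719 CPM in the controls and 10262 and 21141 CPM under knockdown, with a log2 fold change of 0.58 ± 0.16 (SE, adjusted p = 0.774 in edgeR). Knockdown input 1 was level with the controls, and the value was -0.03 without knockdown replicate 2 and 1.01 without knockdown replicate 1. With 1 knockdown library left, a fit holds no spread among knockdown samples. RN7SL2 measured 81066 and 71704 CPM in the controls and 73088 and 49590 CPM under knockdown, with a log2 fold change of -0.32 ± 0.10 (SE, adjusted p = 1.00 in edgeR). Only knockdown input 2 lay below both controls, and the value was -0.06 without knockdown replicate 2 and -0.63 without knockdown replicate 1. RN7SL3 measured 6765 and 6149 CPM in the controls and 7709 and 4289 CPM under knockdown, 1 library above and 1 below the controls, with a log2 fold change of -0.11 ± 0.14 (SE, adjusted p = 1.00 in edgeR). Its value turned from -0.60 without knockdown replicate 1 to 0.25 without knockdown replicate 2. In 5 comparisons over samples, those of the family share and of the share of each abundant copy, the exact permutation p was 0.333 to 1.00 and the Benjamini-Hochberg adjusted p 0.833 to 1.00. With 2 against 2 samples this p cannot fall below 0.333, so none of these comparisons could pass.

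Over all members, 111 of 154 were tested and the other 43, with 10 to 39 counts, were too sparse. RN7SL4P was the 1 member past the threshold. Of all 22803 transcripts tested, 0.0219% passed in either direction, 0.00439% as higher and 0.0175% as lower. The 1 transcript that passed as higher was RN7SL4P itself, so that share is no separate background for it. Of the 111, 61 had a log2 fold change above 0 and 50 below it, and the median was 0.02 against 0.00 over all transcripts. An unadjusted p under 0.05 was found for 9 members, 8.11% of those tested beside 4.55% of all transcripts. In 18 members (16.2%) both knockdown CPM values lay above both controls, and in 16 (14.4%) both lay below. Over all transcripts tested these shares were 16.5% and 16.7%. Apart from the abundant copies, the members of smallest p, named after their values were seen, were RN7SL220P in an intron of HERC4 (46 and 56 counts in control, 19 and 28 in knockdown) and RN7SL149P in ANK1 (17 and 11 against 1 and 3). Their groups did not overlap, and neither passed (edgeR adjusted p = 1.00).

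**Figure D2:**
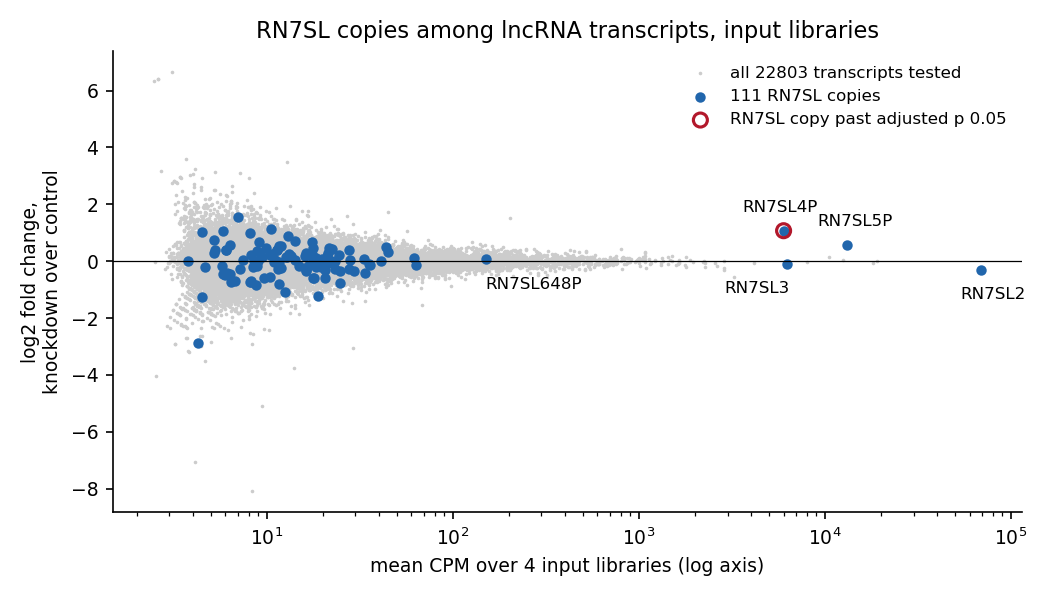
Log2 fold change of knockdown over control inputs (vertical axis) against mean CPM over the 4 inputs (horizontal log axis), for the 111 tested RN7SL copies (blue) over all 22803 transcripts tested (grey). The 4 abundant copies lie far to the right of the other members, and RN7SL4P at 1.07 is the 1 copy past the threshold (red ring).

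On the protein side of the particle no gene passed. All 8 measured genes of SRP proteins and the SRP receptor were tested and 0 passed, against 0.0374% of 13362 mRNA genes. An unadjusted p under 0.05 in edgeR was found for 0 of the 8 and for 3.3% of all mRNA genes. A log2 fold change above 0 was found for 6, with a median of 0.04. SRP9, which binds the Alu domain of the RNA together with SRP14, measured 433 and 452 CPM in the controls and 471 and 485 CPM under knockdown (log2 fold change 0.11 ± 0.07, SE). SRP14 measured 105 and 102 CPM in the controls and 104 and 96.7 CPM under knockdown, with a log2 fold change of -0.05 ± 0.08. SRP54, the GTPase that binds the signal peptide, measured 106 and 112 CPM in the controls and 117 and 123 CPM under knockdown, with a log2 fold change of 0.14 ± 0.08. SRP9, SRP54, SRP68 and SRPRA were a little higher in both knockdown libraries and did not pass (edgeR adjusted p = 1.00). The groups of SRP14, SRP19, SRP72 and SRPRB overlapped. The share of such separate groups over all mRNA genes is not given here. Log2 fold changes were 0.06 for SRP68 and 0.02 for SRP72, which bind the RNA as a pair, and -0.02 for SRP19, which helps SRP54 to join. The receptor subunits SRPRA and SRPRB had log2 fold changes of 0.12 and 0.02.

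**Figure D3:**
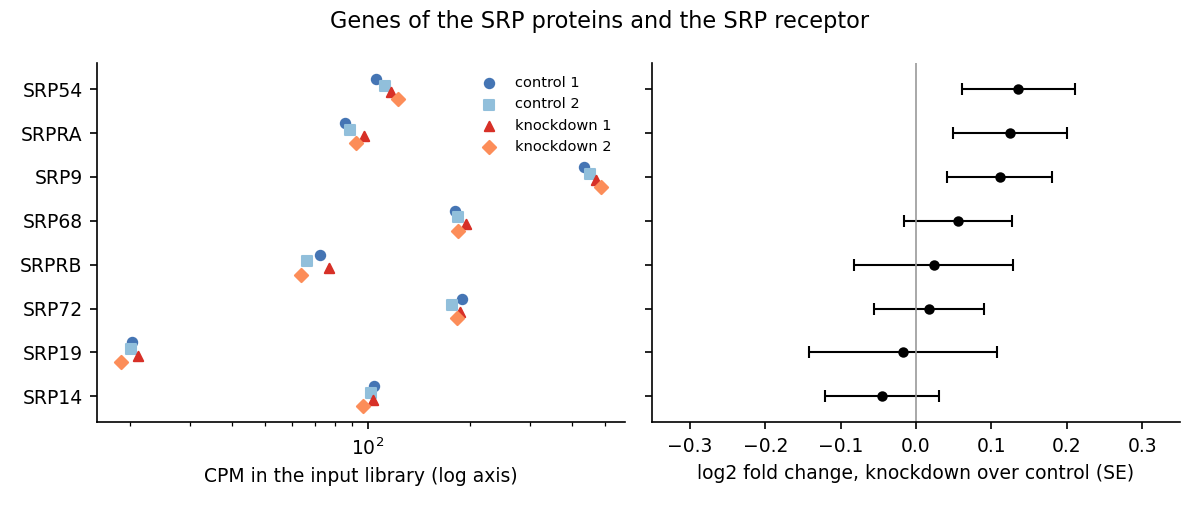
CPM of 8 genes of SRP proteins and the SRP receptor in each input library (left, log axis) and their log2 fold change of knockdown over control with its SE (right). All values lie between -0.05 and 0.14, and 0 genes passed the test.

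Genes that act after the SRP, and those of RNA polymerase III in general, did not pass either. Of 16 genes of the ER translocon and the signal peptidase, 0 passed, 9 had a log2 fold change above 0 and 7 below, and the median was 0.01. Those of smallest p were the signal peptidase subunits SPCS2 (-0.20 ± 0.12, SE) and SPCS1 (-0.11 ± 0.11) and the translocation protein SEC62 (0.09 ± 0.07). Of 30 tested genes of RNA polymerase III and its factors, 0 passed, 14 were above 0 and 16 below, and the median was -0.01. SSB, the La protein that binds the 3′ end of new polymerase III transcripts, had a log2 fold change of -0.16 ± 0.09 (SE) and the transcription factor GTF3A -0.17 ± 0.11. In neither list did any gene have an unadjusted p under 0.05 in edgeR.

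Peaks of m1A were listed for some copies of the family. Over the 4 lncRNA peak lists, 1 per sample, 24 of 154 members (15.6%) had at least 1 peak, beside 7.78% of all lncRNA transcripts with 10 or more summed counts. A peak in every list was found for 6 members (3.90%) beside 0.715% of those transcripts. These are counts of the authors' calls, and reads shared between copies may give 1 signal several names. The lists held 15 and 12 member peaks in control and 13 and 10 in knockdown, a difference of -2 in the mean that was smaller than the spread within groups (exact two-sided permutation test, p = 0.667). They made up 0.580% and 0.708% of the control lists, which held 2588 and 1696 peaks, and 0.555% and 0.723% of the knockdown lists, which held 2343 and 1384. Of the 24 members, 11 had peaks in both groups, 7 in control lists alone and 6 in knockdown lists alone, and none of these 13 was listed in both samples of its group and in neither of the other group.

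The abundant copies fell into 2 kinds by their peaks. RN7SL2 was listed in every sample, with the fold enrichment over input, as the authors list it, at 4.20 and 3.89 in control and 2.76 and 5.09 in knockdown. RN7SL3 was listed in every sample as well, with folds of 10.1 and 9.33 in control and 10.98 and 16.3 in knockdown. In all 8 cases the peak spanned the whole copy and had a score of 3100, the highest value listed for RN7SL peaks. That score is not particular to them. RN7SL674P and RN7SL396P had it in every sample too, on at most 8 input counts in any library. RN7SL5P and RN7SL4P were listed with a peak in no sample, although each had at least 5574 counts in every input. A copy that is not listed is one without a call by the authors and not one shown to lack m1A. Folds were called in each sample separately and were not tested between groups.

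The largest folds belonged to sparse copies. RN7SL674P, in an intron of GREB1 on chromosome 2 (peak 11584773 to 11585047), had folds of 516 and 268 in control and 399 and 526 in knockdown, with 2, 4, 3 and 3 input counts in the same order. RN7SL396P, an intergenic copy on chromosome 8, had folds of 326 and 258 in control and 30.9 and 30.1 in knockdown, with 4, 8, 3 and 0 input counts. Its folds were lower in both knockdown lists than in both control lists, on at most 8 input counts in any library. Folds of RN7SL308P were lower in both knockdown lists too, and those of RN7SL3 were higher in both. The groups of RN7SL2, RN7SL674P and RN7SL767P overlapped. The intergenic RN7SL767P on chromosome 3 had folds of 12.9, 15.0, 13.1 and 5.89 on 36 to 57 input counts. RN7SL308P, in an intron of ZNF704, had folds of 13.7 and 11.9 in control and 6.68 and 6.95 in knockdown on 32 to 50 input counts. For 3 further members a peak was listed in 3 samples. RN7SL242P, in an intron of LRRC40, had folds of 17.1 and 11.4 in control and 4.05 in knockdown 2. RN7SL448P, in BCAS3, had folds of 6.22 and 9.63 in control and 13.6 in knockdown 2, and RN7SL587P, in SPTLC2, had 20.8, 5.54 and 13.8 in those samples. The members with a peak had a median of 55.5 summed input counts and those without one 78, so that the copies with a listed peak were not richer by the median. Both sets hold abundant copies. RN7SL2, with 554176 summed counts, and RN7SL3 had a peak, and RN7SL5P and RN7SL4P had none.

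**Figure D4:**
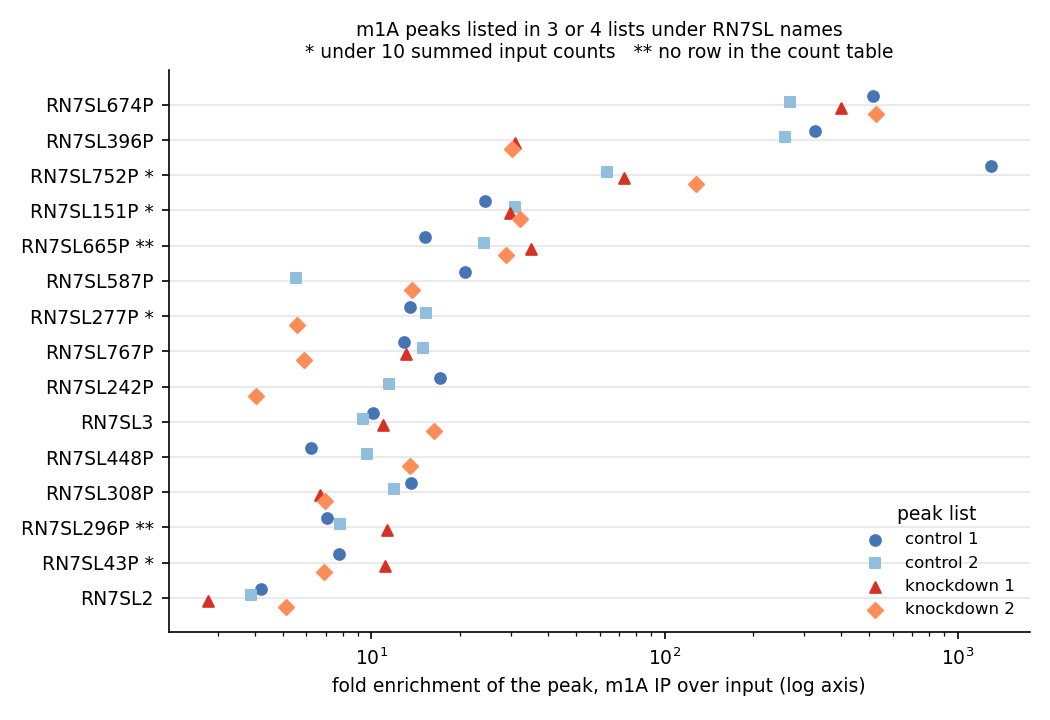
The authors' fold enrichment (horizontal log axis) of RN7SL peaks listed in at least 3 of the 4 samples, 1 row per copy and 1 mark per peak list. RN7SL674P lies at 268 to 526 in every list, and RN7SL2 lies lowest at 2.76 to 5.09. RN7SL396P lies at 326 and 258 in control and at 30.9 and 30.1 in knockdown. RN7SL3 lies at 10.1 and 9.33 in control and at 10.98 and 16.3 in knockdown.

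The remaining 15 members with a peak were listed in 1 or 2 samples. RN7SL49P in GPALPP1 had folds of 5.62 in control 1 and 6.97 in knockdown 1, and RN7SL838P in ANO9 had 4.95 in control 1 and 6.69 in knockdown 2. Of the 13 found in 1 sample, the intergenic RN7SL473P had the highest fold, 29.4 in control 2, followed by RN7SL11P in ANKRD6 (10.6 in control 1), RN7SL833P in ECSIT (9.37 in knockdown 1) and RN7SL297P in MERTK (9.17 in control 2). RN7SL118P, RN7SL166P, RN7SL181P, RN7SL444P, RN7SL482P, RN7SL521P, RN7SL606P, RN7SL612P and RN7SL769P had folds between 2.56 and 6.64. By position, peaks were listed for 6 of 21 intergenic members, 17 of 127 sense intronic members, 1 of 5 antisense members and 0 of 1 bidirectional member. Of the 24 members with a peak, 13 were also tested for their input level. Their log2 fold changes ran from -0.32 to 0.41 with a median of 0.00, and none passed.

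Most listed peaks covered a whole copy. Of 50 member peaks, 36 ran from the first to the last annotated base, so that the lists do not place m1A within the RNA at those copies. The other 14 were 40 to 267 bases long, and each reached 1 end of its copy. No member peak extended beyond its annotated copy. Whether peaks were cut at the annotated ends, and whether enrichment continued into a host gene, was not tested. Of the 14 partial peaks, 5 included the first base and 9 the last, as at RN7SL587P, where the peak began at base 68 or 69 of 281 in 3 samples. RN7SL308P had peaks over bases 1 to 265 or 1 to 267 of 297 in 3 samples and over the whole copy in control 2. The shortest peak covered bases 245 to 284 of RN7SL833P. No RN7SL peak lay within 1000 bases of any of 465 tRNA genes in RefSeq (GRCh38.p14).

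**Figure D5:**
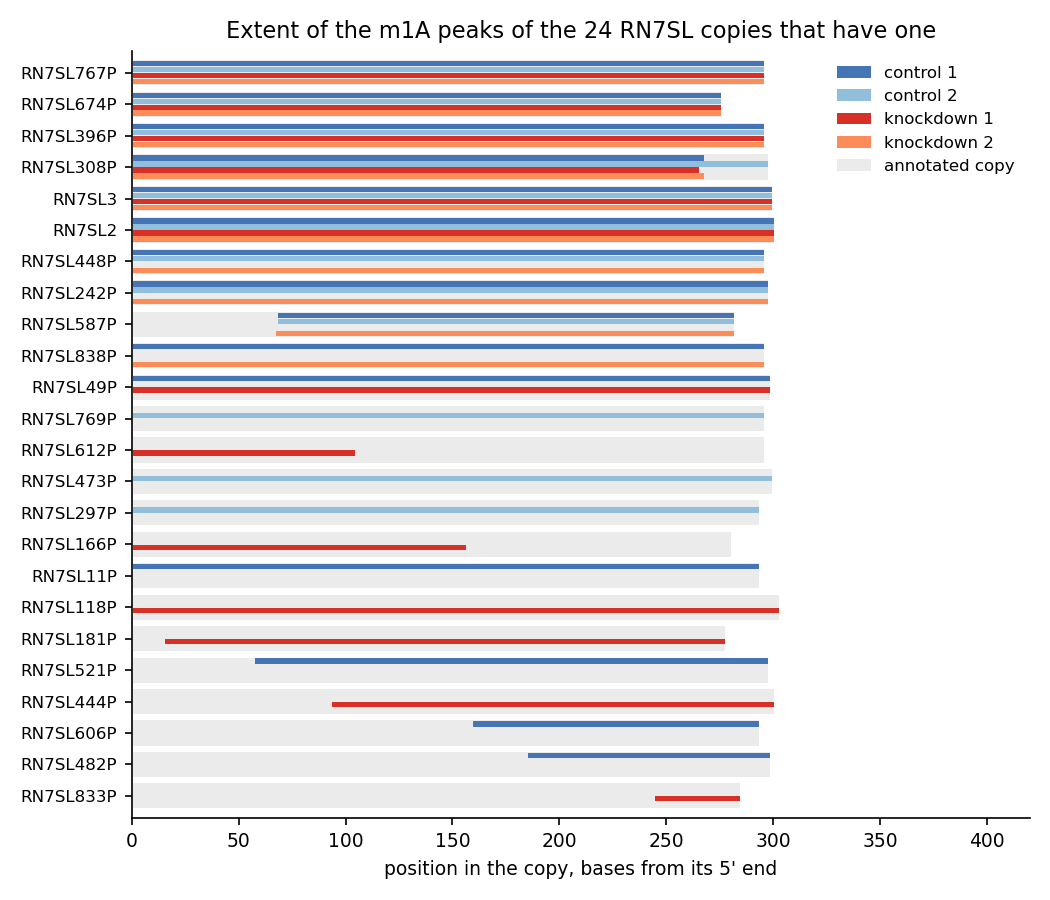
Extent of each listed m1A peak within its RN7SL copy, in bases from the 5′ end of the annotated copy (grey), for the 24 members with a peak, 1 coloured bar per peak list. In 36 of 50 cases the bar spans the whole copy, and each of the other 14 reaches 1 end.

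Peaks were also listed on transcripts of SRP protein genes. A noncoding transcript of SRP14 on chromosome 15 (peak 40038282 to 40038948, from 40038711 in knockdown 2) had folds of 14.1 and 9.46 in control and 6.25 and 8.15 in knockdown. The SRP68 mRNA on chromosome 17 (peak 76072308 to 76072653, to 76072643 in knockdown 1) had folds of 8.84 and 7.25 in control and 3.22 and 10.3 in knockdown. SRP19 had a peak in control 1 alone, with a fold of 4.18.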

How the data were processed

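The deposited tables hold raw counts of 4 inputs, per transcript for lncRNA and per gene for mRNA, per the file headers. Peaks come as 1 list per sample and RNA class. Each listed peak has a fold enrichment, a linear ratio of immunoprecipitated over input, and a score, deposited by the authors as 10 times the negative log10 of p. The lowest lncRNA values listed were 2 for the fold and 50 for the score. Normalized values in 8 further columns were left out. The submitters' processing notes name STAR, HISAT2 2.0.4, edgeR and HTSeq 0.9.1 and build hg38, with no role or order. Counts of the immunoprecipitated libraries were not analysed here.

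Members, gene lists and tests were chosen with earlier results of these data known. Copies were named where they held at least 1% of the RN7SL total in any input, passed the test, had a listed peak or stood at the 10-count limit, and other lists by their 3 smallest p. All SRP protein genes were named, and 1 gene of another list that the rule names is not reported here. Whole tables of counts were tested with edgeR 4.0.16 in R 4.3.3 (filterByExpr with a minimum count of 10, TMM, quasi-likelihood test, no block, both groups of inputs), after a check on simulated counts, with Benjamini-Hochberg adjustment over the table and a threshold of 0.05. The SE is the log2 fold change divided by the root of F. CPM uses TMM-scaled library sizes. Shares and peak numbers were compared over samples with exact permutation tests (scipy 1.17.1). Alternatives were limma-voom (limma 3.58.1), DESeq2 1.42.0, its size factors in edgeR, library sizes of the mRNA table, other filters, the replicate number as a block, sums per gene name or over the family, other limits on shares and peaks, and leaving out each library. Sums over the family without single libraries or over abundant and other copies, and a fit without RN7SL rows, were added after seeing the data. Positions are 1-based. Every member's name matched RefSeq (GRCh38.p14), which gave the gene type. No sequence of a copy was used here.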

Additional observations from a re-analysis of the deposited data

How the results depend on the processing

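Limits come first. With 2 samples a group, shares could not pass an exact test, and reads shared between copies limit what any single copy shows. The direction of the family total rests on knockdown replicate 2. Every call of RN7SL4P was kept, with log2 fold changes of 0.89 to 1.26 without 1 library and 1.06 to 1.08 otherwise.

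The number of RN7SL copies past the threshold was 1, and it was 2 with limma-voom (RN7SL2 joined), 3 with no filter, 0 with the family summed to 1 row and 1 to 4 without 1 library. For lncRNA transcripts it was 5, with 24 for no filter, 18 to 32 without 1 library and 4 without the RN7SL rows. For mRNA genes it was 5, with 24 for DESeq2, 3 for limma-voom, 14 for no filter and 11 to 135 without 1 library. The cause was not tested.

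Same-numbered samples deviated from their group means with a correlation of 0.0221 in lncRNA and 0.119 in mRNA. With 2 samples a group, and with counting noise in sparse rows lowering such a value, it cannot show whether same-numbered samples belong together. With the replicate number as a block, 3 RN7SL copies, 22 lncRNA transcripts and 15 mRNA genes passed. RN7SL4P had 1.08, and RN7SL2 (-0.34) and RN7SL5P (0.49) were past the threshold in that fit.

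Without 1 library, the log2 fold change ran from -0.032 to 1.01 for RN7SL5P, -0.60 to 0.25 for RN7SL3, -0.23 to 0.032 for the family as 1 row, -0.24 to 0.032 for the abundant copies summed, -0.045 to 0.0084 for the other copies summed (-0.01 ± 0.09 SE with all libraries), -0.096 to 0.0028 for SRP14, -0.032 to 0.066 for SRP72, -0.12 to 0.16 for SRPRB and -0.10 to 0.062 for SRP19. The family share differed by -1.28 to 0.239 points, the RN7SL4P share by 4.17 to 5.52 points and the mean number of member peaks by -3.5 to -0.5. TRMT61A passed without knockdown replicate 1 alone, at -1.36.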

Other observations

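Copies of RN7SK and of Y RNA in the lncRNA table held far fewer counts than the SRP RNA. Names starting with RMRP, RPPH1, VTRNA, SNORA or SNORD had no row there, so their level was not measured. Those starting with RNU, SCARNA or TERC had 1 row each. The 80 rows whose name starts with RN7SK, copies of the RNA that holds the elongation factor P-TEFb inactive, had 1832 and 2632 counts in the control inputs and 2234 and 2375 in the knockdown inputs, or 0.106%, 0.114%, 0.101% and 0.112% of lncRNA counts. Of 31 tested, 0 passed in edgeR, 2 had an unadjusted p under 0.05 and the median log2 fold change was -0.06. The 15 rows of Y RNA copies had 90 and 142 counts in control and 136 and 115 in knockdown, and of 5 tested, 0 passed in edgeR and 0 had an unadjusted p under 0.05. RN7SL copies held more counts than RN7SK copies in every input.

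Peaks under RN7SL names outside the 154 members were listed too. Over the 4 lists, 103 peaks carried 53 RN7SL names, of which 12 had under 10 summed input counts and 17 had no row in the count table. RN7SL752P, with 1 count over all inputs, had folds of 1297 and 63.8 in control and 72.9 and 128 in knockdown, so that 1 control list stood far above the other. RN7SL151P, with 2 counts, had folds of 24.5, 31.0, 29.7 and 32.1, close together in all samples. RN7SL665P, with no row, had 15.3, 24.3, 35.2 and 28.7. A peak in both control lists and in no knockdown list was found for 2 of the 53 names, and the reverse for 1.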
